A study of Mus musculus with 4 samples.

Results

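The genes described here are 10 markers used to tell brown and beige adipocytes apart from each other and from white adipocytes: Tbx1, Cd40, Tnfrsf9, Tmem26, Cited1, Klhl13, Slc36a2, Zic1, Lhx8 and Kcnk3. They were chosen by name, through every array probe that the array design assigns to them. This gave 12 of the 55681 probes and 10 of the 22066 RefSeq genes that could be matched to names on the arrays. Tnfrsf9 and Zic1 had 2 probes each, and the other 8 genes 1 probe each. Expression was measured in interscapular brown adipose tissue (iBAT) and epididymal white adipose tissue (eWAT) of male mice aged 10 weeks, either wild type (WT) or lacking the stress kinase ASK1 in every cell (ASK1KO). The study asked what ASK1 does in adipose tissue. The mice were of the C57BL/6J strain, untreated, and the WT and ASK1KO animals came from separately bred colonies, so genotype and colony cannot be told apart. Each of the 4 combinations of genotype and tissue had 1 single-colour array, hybridized with RNA pooled from 3 mice, so no condition had a replicate and the spread between mice is not known. The iBAT arrays lay in one row of the slide and the eWAT arrays in the other, so tissue and position on the slide cannot be told apart.

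Brown adipocytes of the interscapular depot burn fuel for heat, and their precursors share a developmental origin with skeletal muscle and express transcription factors such as Zic1 and Lhx8. Beige adipocytes arise within white depots, mainly after cold or β-adrenergic stimulation, and have been described by a different set of genes, among them Tbx1, Tmem26, Cd40, Tnfrsf9 and Cited1. Some of these genes are shared with cells of other types in fat, since Cd40 and Tnfrsf9 encode receptors of the tumour necrosis factor family that are best known from immune cells.

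The sequences on which the readings of Zic1, Lhx8 and Tnfrsf9 turned are shown first. Each is the part of a 60-base probe from base 31 to base 60, written 5′ to 3′ as spotted, and the capitals mark a run of the dinucleotide GT.

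Zic1 probe 1: gttacagctattcaatatttatggctagta
Zic1 probe 2: cacgcaccccagctctctgcgtaaacacat
Lhx8: gtgttttcgggacaagctgaaggcacgtcc
Tnfrsf9 probe 1: taaaatcaGTGTGTGTGTGTGTGTGTGTGT
Tnfrsf9 probe 2: taacatatttgtctttaccttttttaaatc

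On the mm9 build, the Zic1 probes match the minus strand at chr9:91255425-91255484 and chr9:91257301-91257360, and the Lhx8 probe the minus strand at chr3:153969377-153969436. The Tnfrsf9 probes match the plus strand at chr4:150319582-150319641 and chr4:150319101-150319160. Exons and untranslated regions were not assigned, because no annotation of that build was used here.

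The arrays carried signal well above background for between 28985 probes in WT iBAT and 33389 in WT eWAT, and no spot was saturated. The 75th percentile of the signal was 356 and 371 on the iBAT arrays and 673 and 634 on the eWAT arrays, in WT and ASK1KO respectively. Differences and ratios are therefore given on the log2 scale after subtraction of that percentile, whereas the levels on each array are given as the unscaled processed signal, in which the eWAT arrays were the brighter. The subtraction moved the median probe by -8.47 and -8.54 on the iBAT arrays and by -9.40 and -9.31 on the eWAT arrays. Of the 2 probes for Map3k5, the gene of ASK1, one read 448 in WT iBAT, 117 in ASK1KO iBAT, 701 in WT eWAT and 194 in ASK1KO eWAT. The other read 1081, 1082, 1264 and 836 in the same order, and whether it lies in the deleted part of the gene is not given in the sources used here. Ucp1, the uncoupling protein that defines thermogenic fat, read 343275 in WT iBAT and 263161 in ASK1KO iBAT, against 6603 in WT eWAT and 252 in ASK1KO eWAT. The deposited spots gave a measure of technical error: the log2 ratio of 2 arrays varied between spots of the same probe with a median SD of 0.086 for the iBAT pair (n = 275 probes) and 0.060 for the eWAT pair (n = 292 probes). For probes with a signal under 100 this SD was 0.245 in iBAT (n = 44 probes) and 0.219 in eWAT (n = 37 probes). It covers the array and not the mice.

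**Figure D1:**
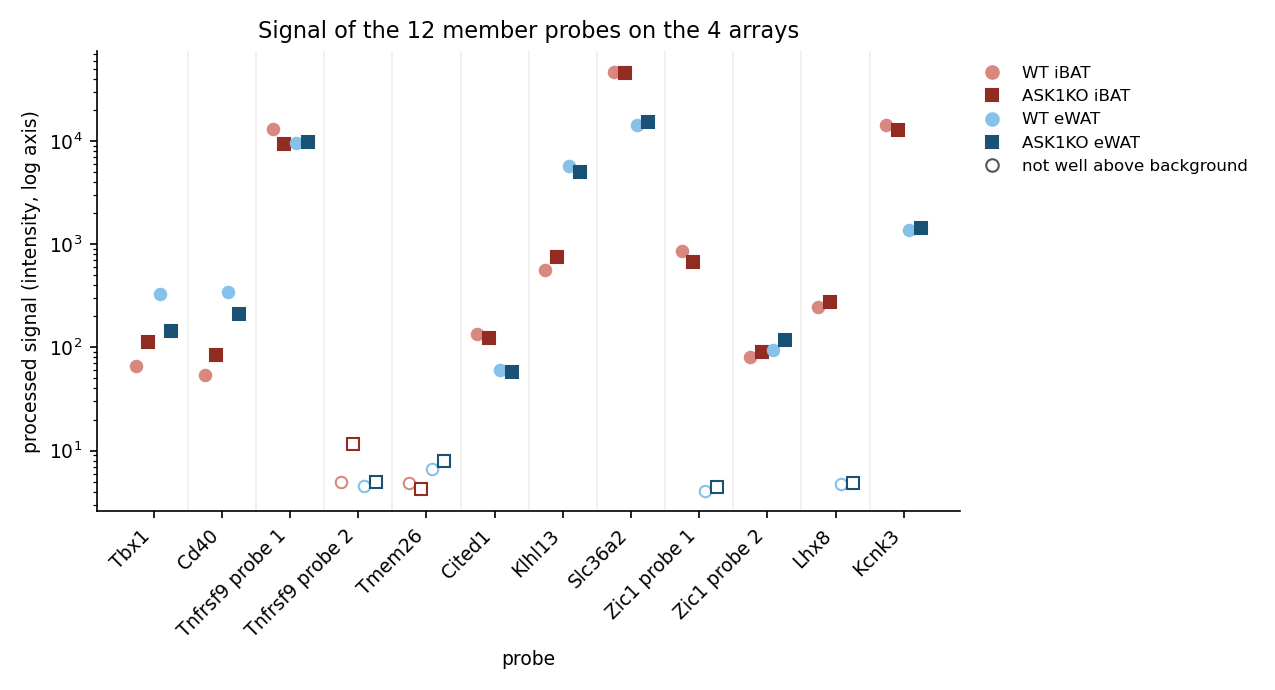
Processed signal (intensity, log axis) of each of the 12 probes for the 10 genes on the 4 arrays, 1 point per array, with open symbols where the probe was not well above background. Lhx8 and probe 1 of Zic1 read between 248 and 855 on the iBAT arrays and under 5 on the eWAT arrays, while Tmem26 and probe 2 of Tnfrsf9 were not well above background on any array.

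The 2 lineage transcription factors of classical brown fat, Zic1 and Lhx8, were read in iBAT and, by 1 probe of each, not well above background in eWAT. Lhx8, a LIM-homeodomain factor, gave a signal of 248 in WT iBAT and 276 in ASK1KO iBAT, and its probe was not well above background in WT eWAT (4.70) or ASK1KO eWAT (4.82). Both eWAT arrays were at the dim end of the scale. Set against the dimmest signal that still passed as well above background on each eWAT array, Lhx8 was at least 23.8-fold higher in iBAT after scaling, over both genotypes. Within a genotype, the lower bound was 24.8-fold in WT and 22.8-fold in ASK1KO. Because Lhx8 entered the comparison through its iBAT signal, it had to differ, and no test is given.

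Zic1, a zinc-finger factor, was read by probe 1 at 855 in WT iBAT and 669 in ASK1KO iBAT, while the eWAT arrays gave 4.11 and 4.41 and were not well above background. By this probe Zic1 was at least 68.7-fold higher in iBAT after scaling, with bounds of 85.6-fold in WT and 55.1-fold in ASK1KO. As for Lhx8, this probe entered the comparison through its iBAT signal and had to differ. Probe 2 of the same gene gave a different picture. It read 80.2 in WT iBAT, 90.8 in ASK1KO iBAT, 94.9 in WT eWAT and 118 in ASK1KO eWAT, well above background on all 4 arrays, and its scaled difference of 0.54 ± 0.17 (log2, SE) did not pass a limma fit of tissue and genotype over the 4 arrays, run per probe (adjusted p = 0.0585). It passed in fits of 1 value per gene where this probe stood for Zic1 alone (limma, adjusted p = 0.026 over genes detected on all 4 arrays and 0.0487 over the brightest probe of each gene). Without scaling, the sign of this probe's tissue difference turned, to -0.24 in WT and -0.37 in ASK1KO. In the fit over all genes Zic1 is the mean of both probes, which stands for neither, and that value is not used here.

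Promoter windows (250 bases before to 50 after a transcript start, RefSeq, GRCm38.p6) were used for 7 of the 10 genes, 15 windows in all, and those of Cd40, Slc36a2 and Kcnk3 were not analysed here. Those of Lhx8 and Zic1 are shown because both genes were read in iBAT and, by at least 1 probe, not in eWAT, and because the windows differ in base composition. Each is written 5′ to 3′ on the minus strand of the genome, with CG dinucleotides in capitals. The Lhx8 window is chr3:154330511-154330810 and the Zic1 window chr9:91365719-91366018.

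Lhx8 promoter window: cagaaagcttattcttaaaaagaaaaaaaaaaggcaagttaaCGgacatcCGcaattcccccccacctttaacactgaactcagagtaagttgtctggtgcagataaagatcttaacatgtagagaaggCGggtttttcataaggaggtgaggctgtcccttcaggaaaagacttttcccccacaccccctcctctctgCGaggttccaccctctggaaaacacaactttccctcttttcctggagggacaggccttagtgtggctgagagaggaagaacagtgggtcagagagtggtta
Zic1 promoter window: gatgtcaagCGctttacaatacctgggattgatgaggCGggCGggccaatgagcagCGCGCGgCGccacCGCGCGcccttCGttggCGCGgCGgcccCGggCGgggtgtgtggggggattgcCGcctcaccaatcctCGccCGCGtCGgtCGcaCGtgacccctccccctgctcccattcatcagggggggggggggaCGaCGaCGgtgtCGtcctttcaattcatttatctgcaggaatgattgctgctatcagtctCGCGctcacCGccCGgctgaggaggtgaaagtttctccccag

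The Zic1 window holds 31 of these dinucleotides at a GC content of 65.3%, whereas the Lhx8 window holds 4 at a GC content of 47%, against medians of 7 and 52.7% over all 32851 windows. The windows were searched on both strands for the palindromic cAMP response element (TGACGTCA), the direct repeat bound by PPARG and RXR, the EBF palindrome, and the TATA box, written as TATAAA. None of these was found in the windows of Lhx8 and Zic1, and over all windows the motifs were present in 1.79%, 0.0396%, 0.904% and 13.6%, in that order. Among the 15 windows of the marker genes, the TATA box was present in 2 windows of Cited1 and the other motifs in none. No match says only that these letters are not in the window.

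Slc36a2 and Kcnk3, 2 membrane proteins of brown and beige adipocytes, were well above background on all 4 arrays and higher in iBAT. Kcnk3 encodes a two-pore potassium channel. Its signal was 14402 in WT iBAT and 12831 in ASK1KO iBAT, and 1364 in WT eWAT and 1420 in ASK1KO eWAT (chr5:30927090-30927149, plus strand). The scaled difference between the tissues was 4.13 ± 0.17 (log2, SE; limma, adjusted p = 0.000398), made up of 4.32 in the WT pair and 3.95 in the ASK1KO pair. Slc36a2, the amino acid transporter PAT2, gave 46778 and 45044 in WT and ASK1KO iBAT, and 14323 and 15269 in WT and ASK1KO eWAT (chr11:54972134-54972193, minus strand). Its tissue difference was 2.48 ± 0.16 (limma, adjusted p = 0.000954), with 2.63 in WT and 2.33 in ASK1KO. Over all settings run the fitted difference was 3.29 to 4.13 for Kcnk3 and 1.63 to 2.48 for Slc36a2, lowest without scaling and always past the test. For both genes the genotypes of a tissue lay close together.

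Cited1 and Klhl13, both among the beige markers, differed between the tissues in opposite directions. Cited1, a transcriptional co-regulator, read 133 in WT iBAT, 122 in ASK1KO iBAT, 60.4 in WT eWAT and 58.1 in ASK1KO eWAT (chrX:99442776-99442835, minus strand), so it was the brown depot that held the higher signal. The scaled difference was 1.95 ± 0.16 (limma, adjusted p = 0.00143), with 2.06 in WT and 1.85 in ASK1KO. It was 1.11 without scaling and 1.33 with normexp correction, and passed the test in all settings run. Klhl13, an adaptor of a cullin ubiquitin ligase, was lower in iBAT, with 557 in WT and 753 in ASK1KO, than in eWAT, with 5744 in WT and 5000 in ASK1KO (chrX:22796399-22796458, minus strand). The difference was -2.20 ± 0.19 (limma, adjusted p = 0.00162), with -2.45 in WT and -1.96 in ASK1KO. In eWAT the summed scaled signal of 10 macrophage markers was 144 to 151, against 39.7 to 50.3 in iBAT. The brightest of them in iBAT, Itgam, differed by only -0.01 between the tissues in WT. The median log2 difference of the list was -3.03 in WT and -2.39 in ASK1KO. The summed scaled signal of 8 mesothelial markers was 30.1 to 35.9 in eWAT against 0.31 to 0.33 in iBAT, with Wt1, Upk3b, Upk1b, Krt19, Krt8 and Bnc1 not well above background on either iBAT array. The part of these cells in the Klhl13 difference was not tested.

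Over the whole set, 9 of the 10 genes entered the tissue fit of 15693 genes, in which 51.1% of genes passed the test (25.7% higher in iBAT and 25.4% lower). Lhx8 and Zic1 are left out of the count, since Lhx8 and probe 1 of Zic1 passed only through iBAT. Of the other 7 genes, each read by a probe well above background on all 4 arrays, 3 were higher in iBAT by probes without a long GT repeat (Kcnk3, Slc36a2 and Cited1), Tnfrsf9 was higher by its GT repeat probe alone (values of other repeat probes are given with that gene), 2 were lower (Klhl13 and Cd40), and Tbx1, at -0.48 ± 0.45 (log2, SE), did not pass (limma, adjusted p = 0.421). In single pairs of arrays, 7 of 8 genes were at least 2-fold apart between the tissues in WT, where 29.8% of 14235 genes were, and 4 of 8 in ASK1KO, where 25% of 14512 genes were. Without scaling between arrays the split of all calls moved from 4035 higher and 3988 lower to 1426 higher and 10357 lower. Tnfrsf9 then no longer passed, at 0.19 (limma, adjusted p = 0.397). In a bulk sample, fewer cells of a type and less RNA per cell cannot be told apart. The iBAT samples also held skeletal muscle transcripts, with a summed scaled signal over 10 muscle markers of 1006 and 1008 against 27.3 and 25.1 in eWAT, and their part in the tissue differences was not tested.

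**Figure D2:**
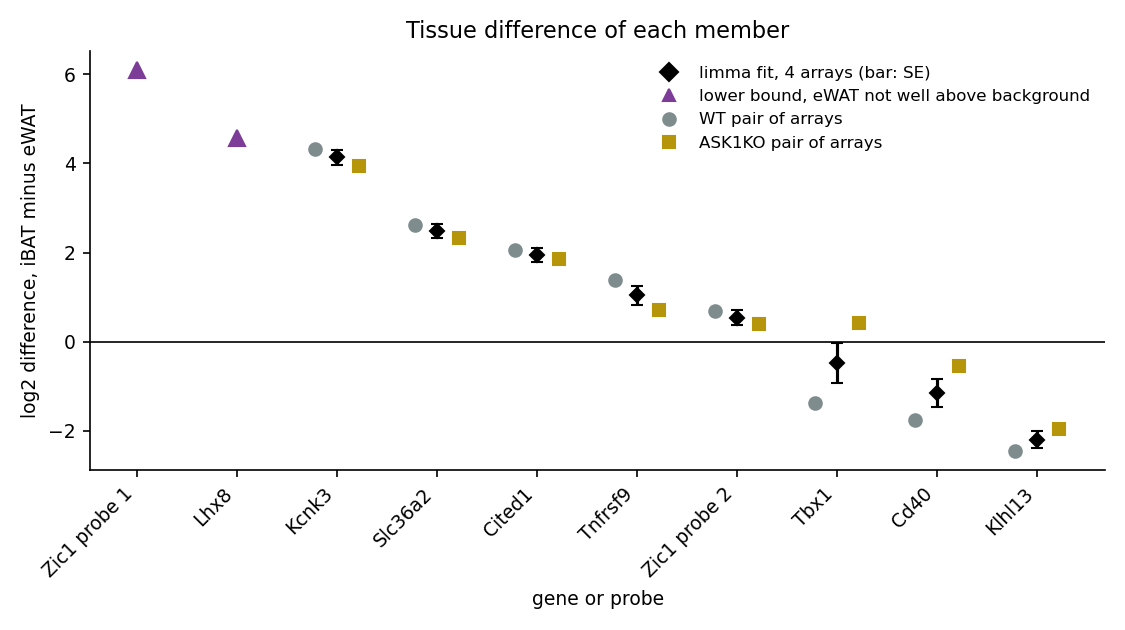
Scaled log2 difference between iBAT and eWAT for the 9 genes that entered the fit, with diamonds for the limma fit over 4 arrays (bars, SE), circles for the WT pair, squares for the ASK1KO pair, and triangles for a lower bound where the probe was not well above background in eWAT. The bounds are 6.10 for Zic1 probe 1 and 4.57 for Lhx8, the fitted values run from 4.13 for Kcnk3 to -2.20 for Klhl13, and the pairs lie on opposite sides of 0 for Tbx1.

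Tbx1 and Cd40 had genotype ratios of opposite sign in the tissues, and in eWAT theirs were the ratios farthest from equality in the set. Tbx1, a T-box transcription factor used as a beige marker, read 66.6 in WT iBAT and 113 in ASK1KO iBAT, and 328 in WT eWAT and 144 in ASK1KO eWAT (chr16:18581807-18581866, minus strand). WT iBAT was the lowest of the 4 arrays and WT eWAT the highest, with both ASK1KO arrays between them. The scaled signal was 1.63-fold higher in ASK1KO than in WT in iBAT (log2 0.71) and 2.15-fold lower in eWAT (log2 -1.10). Of all genes measured, 97.3% had a lower ratio in iBAT and 0.657% had a lower ratio in eWAT. The tissue difference was accordingly -1.38 in the WT pair and 0.43 in the ASK1KO pair, and without scaling -0.34 in the ASK1KO pair. With normexp background correction, which compresses dim signals, the eWAT ratio was -0.85 and no longer past 2-fold.

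Cd40, the receptor for CD40 ligand on antigen-presenting cells, gave 54.2 in WT iBAT, 84.2 in ASK1KO iBAT, 344 in WT eWAT and 210 in ASK1KO eWAT (chr2:164897085-164897144, plus strand). The arrays of each tissue were ordered as for Tbx1. The ratio of ASK1KO to WT was 1.49-fold higher in iBAT (log2 0.57) and 1.54-fold lower in eWAT (log2 -0.63). The fitted tissue difference was -1.15 ± 0.32 (log2, SE; limma, adjusted p = 0.0397), with -1.75 in the WT pair and -0.55 in the ASK1KO pair, and it did not pass where the arrays were scaled on probes well above background on all 4 (adjusted p = 0.0718). Under all scaling, background and probe alternatives run, the ratio in iBAT stayed between 0.39 and 0.68 for Cd40 and between 0.49 and 0.81 for Tbx1. In eWAT it stayed between -0.71 and -0.44 for Cd40 and between -1.19 and -0.85 for Tbx1. Markers of cell types that can carry Cd40 are given beside it. In iBAT all 9 macrophage markers measured had a ratio above 0, with a median log2 of 0.78 beside -0.066 over all genes, and Fcgr1, a receptor for immunoglobulin, was at 1.01. In eWAT 8 of 10 macrophage markers were below 0, with a median of -0.02. Of the dendritic cell markers, 5 of 6 measured were above 0 in iBAT, with a median of 0.23. In eWAT all 7 dendritic cell markers measured were below 0, with a median of -0.45 beside 0.015 over all genes and Itgax, an integrin of these cells, at -0.65. The summed scaled signal of the 8 dendritic cell markers was 1.42 in WT iBAT, 1.62 in ASK1KO iBAT, 7.47 in WT eWAT and 5.52 in ASK1KO eWAT, with Xcr1 not well above background on any array. That of the 10 macrophage markers, of which Itgam was the brightest in iBAT, was 39.7, 50.3, 151 and 144 in the same order. Of the B cell markers, 0 of 4 measured were above 0 in iBAT (median -0.32) and 4 of 6 in eWAT (median 0.04). For the 8 B cell markers the sum was 5.20, 4.29, 5.13 and 5.45, with Pax5 and Blk not well above background on any array. The part of these cells in the Cd40 ratios was not tested.

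The remaining genes lay closer to equality between the genotypes. In iBAT the log2 ratio was 0.38 for Klhl13, 0.10 for Lhx8, -0.12 for Slc36a2, -0.15 for Zic1, -0.19 for Cited1, -0.23 for Kcnk3 and -0.54 for Tnfrsf9. The value of Zic1 was the mean of -0.41 for probe 1 and 0.12 for probe 2. In eWAT it was 0.40 for Zic1, from probe 2 alone, 0.18 for Slc36a2, 0.15 for Kcnk3, 0.13 for Tnfrsf9, 0.03 for Cited1 and -0.11 for Klhl13. A difference of 2-fold between ASK1KO and WT was reached by 0 of 9 genes in iBAT, where 1.85% of all 14376 genes reached it, and by 1 of 8 genes in eWAT, where 1.15% of 15376 did. The 1 gene was Tbx1. The median over the set was -0.12 in iBAT beside -0.066 over all genes, and 0.081 in eWAT beside 0.015. The 7 genes read by the same probe in both tissues all had ratios of opposite sign in iBAT and eWAT, as had 50.6% of 14059 genes. Probe 2 of Zic1 had 0.12 and 0.40, the same sign, and the ratio of Cited1 in eWAT was within the spread between spots. The signs of Tnfrsf9 in iBAT and of Cited1 in eWAT also turned with the choice of probes or of scaling, Tnfrsf9 to 0.31 where its dim probe was included. A ratio of at least 0.5 upward in iBAT and downward in eWAT was found for Tbx1 and Cd40 and for 57 of the 14059 genes (0.405%). With normexp correction neither gene reached 0.5 in iBAT (Tbx1 0.495, Cd40 0.387). Cd40 also fell short there with median centring (0.497) and with the deposited series table (0.489). In the fit with a common effect of genotype in both tissues, 0 of 8 marker genes passed and 0% of 14057 genes were called (limma, 770 genes at unadjusted p under 0.05). The adjusted p of the marker genes was 0.984 to 0.998. Map3k5, the deleted gene, did not pass this fit either, at -1.08 for the mean of its 2 probes (limma, adjusted p = 0.395). Nor did its probe with the lower ASK1KO signal in both tissues, at -1.88 ± 0.15 (log2, SE; limma per probe, adjusted p = 0.120). The lack of calls therefore does not show that genotype had no effect on the markers.

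**Figure D3:**
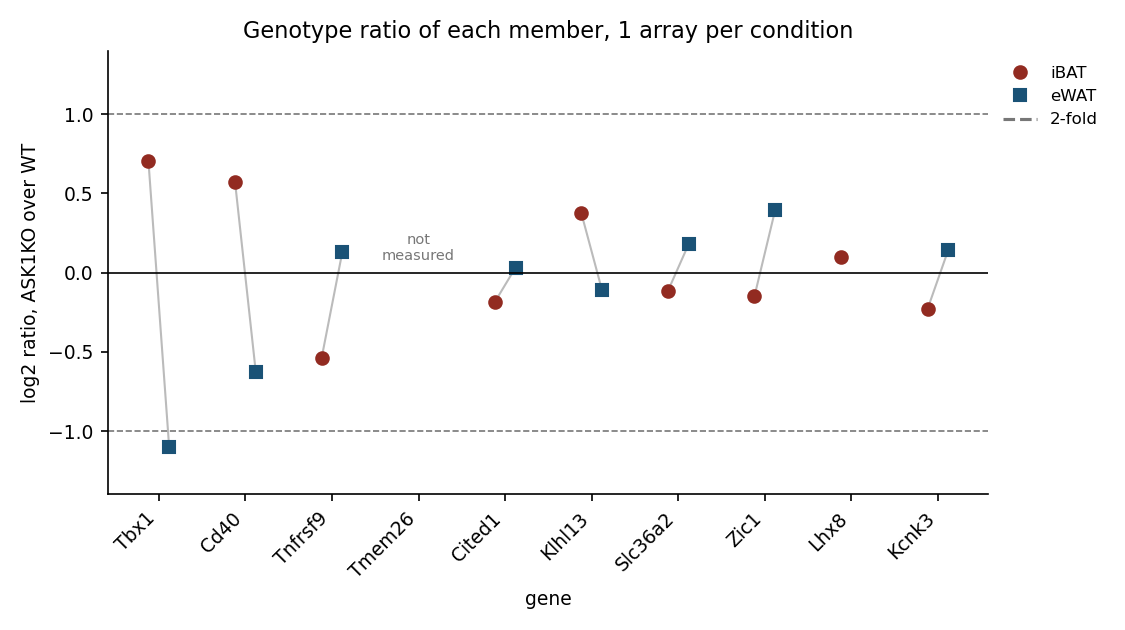
Log2 ratio of ASK1KO over WT for each gene in iBAT (circles) and eWAT (squares), 1 array per condition and so without error bars, with grey lines joining the tissues and dashes at 2-fold (Zic1 is the mean of both probes in iBAT and probe 2 alone in eWAT). Tbx1 and Cd40 lie at 0.71 and 0.57 in iBAT and at -1.10 and -0.63 in eWAT, while the other genes stay between -0.54 and 0.40.

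Tmem26 was not detected on any array, and the probes of Tnfrsf9 disagreed with each other. Tmem26, a transmembrane protein widely used as a beige surface marker, gave signals of 4.89 in WT iBAT, 4.23 in ASK1KO iBAT, 6.60 in WT eWAT and 8.01 in ASK1KO eWAT (chr10:68242806-68242865). The dimmest signals that passed as well above background were 17.3 to 20.7, so expression under that limit was not detectable. Tnfrsf9 encodes CD137, a co-stimulatory receptor of T cells. Its probe 2 was likewise not well above background, at 4.98, 11.6, 4.54 and 4.93, whereas probe 1 read 12947, 9290, 9443 and 9730. Probe 1, printed above, ends in an uninterrupted GT run of 22 bases. The arrays hold 63 probes with at least 9 consecutive GT or TG repeats, assigned to 49 named genes, and all 63 were well above background on every array. The log2 ratio of ASK1KO over WT in iBAT was -0.54 for Tnfrsf9 probe 1 and had a median of -0.45 over the other 62 repeat probes (range -0.61 to -0.29). In eWAT it was 0.13 beside a median of 0.11 (range -0.07 to 0.24). For iBAT over eWAT it was 1.38 beside 1.16 in WT (range 0.55 to 1.48) and 0.70 beside 0.59 in ASK1KO (range 0.14 to 0.86). In every one of the 4 comparisons Tnfrsf9 probe 1 lay inside the range of probes that share the repeat and not the gene. The part of the repeat in its signal was not tested. Its fitted tissue difference, 1.04 ± 0.22 (log2, SE; limma, adjusted p = 0.0178), is that of this probe. Of 7 regulatory T cell markers, Ctla4 was not well above background on any array, and the summed scaled signal was 1.70 and 2.01 in iBAT and 4.40 and 4.01 in eWAT. For 11 T and NK cell markers the sum was 11.2 and 9.39 in iBAT and 7.75 and 6.55 in eWAT, in WT and ASK1KO, with Cd4 higher in iBAT by 1.14 in WT. Of the 7 markers measured on both WT arrays, however, 5 were lower in iBAT (median -0.69), and of 8 in ASK1KO, 4 were lower (median 0.16).

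**Figure D4:**
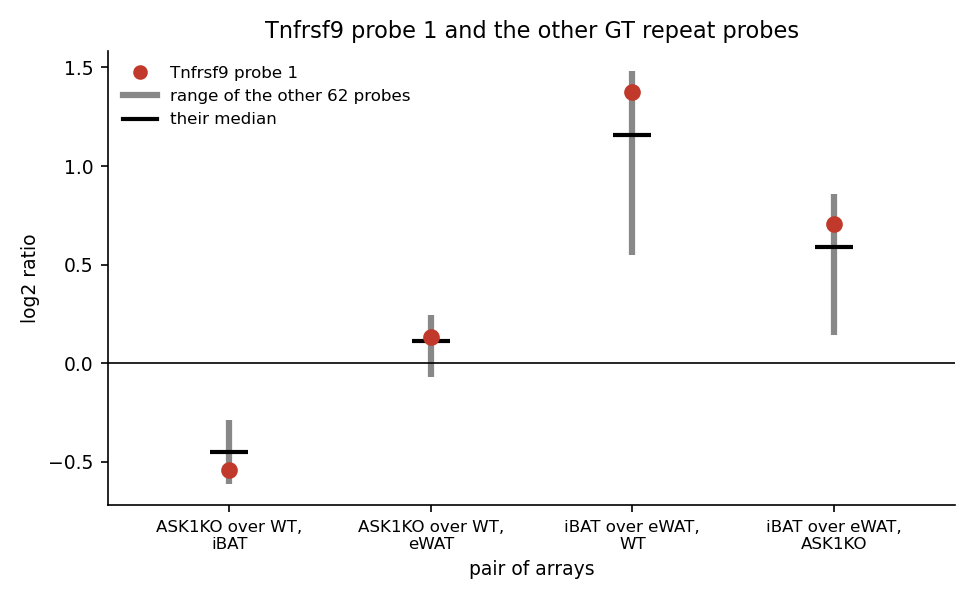
Scaled log2 ratio for 4 pairs of arrays, with a red point for Tnfrsf9 probe 1 and a grey bar and black line for the range and median of the other 62 probes that hold at least 9 GT or TG repeats. The Tnfrsf9 point lies inside the range of the other repeat probes in all 4 pairs.

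Other genes of the brown, beige and white programmes, which the set does not include, gave the setting of these values. Of 25 other brown adipocyte genes, 22 were measured in iBAT and 0 were at least 2-fold higher and 3 lower in ASK1KO, with a median log2 ratio of -0.39, where 1.02% of all genes were 2-fold lower. The 3 were Elovl3, a fatty acid elongase (-4.10), Dio2, the deiodinase that activates thyroid hormone (-2.37), and Acot11, an acyl-CoA thioesterase (-1.52). In eWAT 21 were measured and 6 were at least 2-fold lower, with a median of -0.38, where 0.865% of all genes were. They were Ucp1 (-4.63), Fabp3, a fatty acid binding protein (-3.02), Cidea, a lipid droplet protein (-2.23), Kng2, a kininogen and so a plasma protein (-1.58), Acot11 (-1.03) and Dio2 (-1.02). Of 8 skeletal muscle markers measured in eWAT, 6 were below 0 and 2 were at least 2-fold lower (Acta1, skeletal actin, at -1.02 and Tnni2, a troponin, at -1.04), with a median of -0.58. Of 5 hepatocyte markers measured in eWAT, 3 were at least 2-fold lower (Alb at -4.26, Ahsg at -5.58 and Serpinc1 at -4.03), with a median of -4.03. The part of either cell type in the ratios of the brown genes was not tested. Between the tissues, 20 of 22 measured on both WT arrays were at least 2-fold higher in iBAT, with a median log2 difference of 5.76, and 17 of 20 in ASK1KO, with a median of 6.05, beside the 29.8% and 25% of all genes that were 2-fold apart in either direction.

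Of 15 other beige genes, 13 were measured in each tissue and 0 were 2-fold apart in either, with medians of 0.091 in iBAT and 0.023 in eWAT. In the limma tissue fit 5 of the 13 were higher in iBAT and 4 lower, beside 25.7% and 25.4% of all genes, from P2rx5, a purinergic receptor (5.04), to Ear2, an eosinophil-associated ribonuclease (-5.00). Among the 5 is Sp100, fitted at 1.02 but at 0.16 in WT and 0.15 in ASK1KO over probes well above background on both arrays compared. Its fitted value thus took in a probe not well above background on every array, and its call does not count as evidence of a difference. Of 16 white adipocyte genes 0 were 2-fold apart between the genotypes in either tissue, with medians of 0.032 and 0.047, and 12 of 13 measured on both WT arrays were at least 2-fold lower in iBAT, with a median of -4.12, as were 11 of 12 in ASK1KO, with a median of -4.28, beside the same 29.8% and 25% of all genes. Hoxc9, a positional gene of posterior depots, was not well above background in iBAT (4.97 and 4.27) and read 2739 and 2522 in eWAT, the reverse of Lhx8. For 10 adipocyte genes of every depot the median genotype ratio was -0.28 in iBAT and 0.087 in eWAT, with 0 genes 2-fold apart in either.

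**Figure D5:**
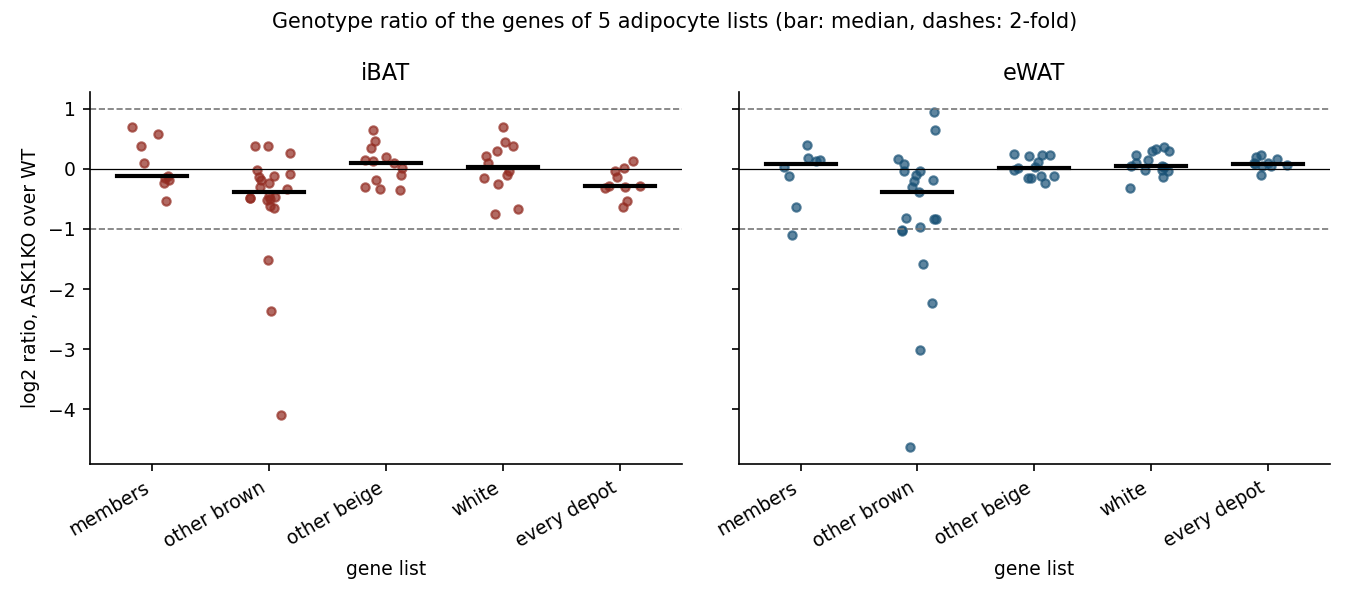
Log2 ratio of ASK1KO over WT in iBAT (left) and eWAT (right) for every measured gene of 5 lists, 1 point per gene with random sideways spread, a black bar at the median and dashes at 2-fold. The other brown genes have medians of -0.39 and -0.38 and reach -4.63, whereas the 10 markers and the other beige genes have medians between -0.12 and 0.091.

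The genes whose 4 array levels most resembled those of each marker were searched among 14056 other genes, by the root mean square difference of log2 profiles centred on their own mean. For Slc36a2 they were Pkm, Cox6b1 and Uqcc1 (0.011 to 0.038), for Kcnk3 Acss1, A430088P11Rik and Capn3 (0.060 to 0.071), and for Cited1 Mme, 1700028B04Rik and Dlat (0.021 to 0.028). For Klhl13 they were Csf1r, Mill2 and Cpxm1 (0.014 to 0.021), and for Cd40 Rad51ap1, Il2rb and Kif22 (0.047 to 0.061). The profile of Tbx1 had no neighbour closer than 0.105, and its nearest genes were Krtap1-4, Cpb2 and Trav3n-3. For probe 2 of Zic1 they were Dcdc2b, Gprc5d and Spag1 (0.025 to 0.041). For Tnfrsf9 they were Btn1a1, Rtn4 and Zc3h14 (0.024 to 0.031), and Btn1a1 is itself read by a probe with a GT repeat. These likenesses rest on 4 arrays.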

How the data were processed

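Cy3-labelled RNA pools were hybridized to Agilent arrays. The authors deposited the scanner output, made with Feature Extraction 10.7.3.1, in which the processed signal is a linear intensity, corrected for background and not scaled between arrays. They also deposited a table of the series, a signal on a linear scale equal to the processed signal of each array divided by a constant that sets its median to 1. After removal of control and outlier spots, replicate spots were averaged on the log2 scale and each array was set relative to its 75th percentile. Genes were summarised as the mean of those probes that the scanner software marked well above background on the 2 arrays compared (for the fit, on both arrays of at least 1 tissue, or on all 4 for genotype). A probe dim on 1 side received a bound against the dimmest signal well above background.

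Ratios within a tissue have no test, with 1 array per condition. Tissue and genotype were fitted as additive terms with limma, with 1 residual degree of freedom and Benjamini-Hochberg adjustment at 0.05. With 1 array per condition, this degree of freedom holds only the gap between the ASK1KO to WT ratios of iBAT and eWAT. For each gene, limma combined that gap with its typical size over all genes. P-values and SEs therefore cover these arrays only and hold no spread between replicates. In the tissue fit, the wide SEs of Tbx1 (0.45) and Cd40 (0.32) came from their opposite genotype ratios, and are no separate measure of noise. The probe-level fit and the comparison of GT repeat probes were chosen after seeing the data. The 10 genes, the 17 gene lists and the rule for named genes were chosen with earlier results of these data known. The genes named were the 10 markers, list genes 2-fold apart between genotypes, Ucp1, Cidea, Map3k5 and the 3 genes of most similar profile. Hoxc9, P2rx5, Ear2, Sp100, Itgax, Itgam, Cd4 and the undetected markers were named after their values were seen. Alternatives were normexp correction (offset 50), quantile normalization, no scaling, median centring, the 75th percentile over probes detected on all arrays, a 1.5-fold threshold, other background filters, the brightest probe, the series table and fits without the other term. Of 34844 gene names, 22147 were matched to RefSeq symbols (GRCm38.p6). The fits were tested on simulated data with planted changes and noise of the size seen between spots. That simulation held no spread between mice and no difference of the genotype effect between tissues, so it does not give the error of the fits here. The number of arrays limits the precision. Fits were run in R 4.3.3 with limma 3.58.1, and all else in Python 3.11.15 with pandas 2.3.3, numpy 2.4.6 and, for the plots, matplotlib 3.10.9.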

Additional observations from a re-analysis of the deposited data

Results flagged for a closer look

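The ratio of ASK1KO to WT had opposite signs in iBAT and eWAT, each more than 2 times the median SD between spots, for 4 of 8 marker genes measured in both tissues and for 12.2% of 14059 genes. The SD used was that over all probes, 0.086 in iBAT and 0.060 in eWAT. It depends on the signal, with 0.245 and 0.219 for probes under 100, so the count depends on that choice. That SD covers the spots and not the mice. The difference between the tissues was not tested, since each condition had 1 array. Tbx1 had a log2 ratio of 0.71 in iBAT and -1.10 in eWAT, and Cd40 0.57 and -0.63. Tnfrsf9, read by the probe with the GT run, had -0.54 and 0.13, and 0.31 in iBAT where its dim probe was included. Kcnk3 had -0.23 and 0.15.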

How the results depend on the processing

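No paired analysis was possible because the arrays share no more than 1 replicate number. The reported tissue fit, with genotype as a term, sets iBAT against eWAT within each genotype. It called 8 of these genes with and 8 without that term. The 8 called with the term include Lhx8 and the mean of both Zic1 probes, which are left out of the count in the results. Over all 15693 genes the calls were 4035 higher and 3988 lower with the term, and 4315 and 4177 without it. With 1 array per condition, no array could be left out of a comparison within a tissue. Of the counts of marker genes past a threshold, 55 values under the alternatives stayed within 1.5 times the reported count and 4 did not. With a 1.5-fold threshold 1 of 9 genes was apart between genotypes in iBAT, beside 8.78% of all genes, and 2 were in eWAT. With normexp correction 0 of 8 genes were 2-fold apart in eWAT, beside 0.39% of all genes. Without a filter on dim probes 7 genes were 2-fold apart between tissues in ASK1KO. The shares of all genes beside the counts of 2 and 7 are not given here, so those counts are not read as results about the markers. For single genes, the ratio in iBAT turned to 0.12 for Zic1 with its probe 2 alone (as its brightest probe by the mean log2 level over all 4 arrays, though not in iBAT, and as the only one detected on all 4 arrays) and to 0.31 for Tnfrsf9 without a filter, which brings in its dim probe. Without scaling, the ratio in eWAT was -0.056 for Cited1, and the tissue difference was -0.24 for Zic1 in WT, and in ASK1KO -0.34 for Tbx1, -0.067 for Tnfrsf9 and -0.37 for Zic1. The common effect of genotype, passing for none of these genes in any of these limma fits, turned to 0.030 for Kcnk3 (quantile), 0.013 for Cd40 (percentile over probes detected on all arrays), -0.0028 for Slc36a2 (median centring) and 0.24 for Tnfrsf9 (no filter). Over all genes this effect was called for 0 genes, but for 12 higher and 12 lower with normexp correction, 38 and 101 with median centring and 36 and 92 with the series table. The cause of these changes was not tested. Dim signals limit Lhx8 and probe 1 of Zic1 to a bound between the tissues and leave Tmem26 and probe 2 of Tnfrsf9 without a ratio.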

Other observations

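Of the 5 hepatocyte markers measured on both eWAT arrays, the 2 that were less than 2-fold apart between genotypes were Tat at -0.46 and Cyp2e1 at -0.0042, and the summed scaled signal of the list was 436 in WT and 423 in ASK1KO, most of it from Cyp2e1. Apoa1, Ttr and Fgb read 157, 829 and 925 in WT eWAT and were not well above background in ASK1KO eWAT. In iBAT 0 of 3 hepatocyte genes measured were 2-fold apart (median -0.01), and Alb, Ahsg, Ttr and Fgb were well above background in ASK1KO and not in WT. Of 10 skeletal muscle genes measured in iBAT, 0 were 2-fold apart, with a median of 0.05. Of 9 smooth muscle and pericyte genes, Cnn1, calponin, was at -1.03 in eWAT, with medians of 0.14 in iBAT and -0.14 in eWAT. No gene was 2-fold apart in either tissue among those measured of 7 endothelial genes (medians 0.12 and -0.12), 8 nerve and Schwann cell genes (0.03 and -0.03), 8 mesothelial genes (-0.43 from 1 gene, and -0.25), 8 B cell genes, 11 T and NK cell genes (-0.05 and -0.46), 7 regulatory T cell genes (0.19 and -0.15) and 10 epididymis and testis genes (0.32 and 0.21), given for iBAT and eWAT. Tat, Cyp2e1, Apoa1, Ttr and Fgb were named after their values were seen.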
